A study of Rattus norvegicus with 23 samples.

Results

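The 200 most abundant distinct piRNA rows of rat cauda sperm are described here across 23 animals. They were taken from a table of 30676 piRNA rows annotated with piRBase identifiers. Whether reads of other RNA classes were counted in these rows could not be checked. The first of any rows with identical values in all 23 libraries was kept, which left 15164 distinct rows, and the 200 distinct rows with the highest mean over the libraries became the members. The members were therefore chosen by their mean level over all 23 libraries, and their levels and shares are given as a description with no test.

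The study sequenced small RNA of sperm from the cauda epididymis, the storage end of the duct, of male Long-Evans rats, an outbred strain. Each sample is 1 rat. The groups, in order of dose, were filtered air (n = 7), 0.4 ppm ozone (n = 8) and 0.8 ppm ozone (n = 8), and the chambers averaged 0, 0.401 and 0.798 ppm. Ozone is an oxidant air pollutant. Every group, air included, spent 5 sessions of 4 h in the chambers over 2 weeks, 3 of them in week 1. The design text names 8 rats in each group, and 7 air libraries are labelled. The labels give no age. Small RNA was isolated with the mirVana procedure, made into libraries with the CleanTag kit and read on a NextSeq 500.

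piRNAs are small RNAs, longer than miRNAs, that are bound by PIWI proteins of the germ line. They are cut from long single-stranded transcripts of dedicated genomic clusters, and in the testis they silence transposons and, at the pachytene stage of meiosis, reach very high levels. Mature sperm make little or no new RNA, so the piRNAs found in them are carried over from earlier stages or taken up. A whole-sperm library is bulk RNA, in which fewer cells that carry an RNA and less of that RNA per cell cannot be told apart.

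The values are the authors' normalised read signal, and each table carries its own scaling, so a level is comparable between rats within this table only. The values are fractional, and the read depth behind them is unknown. The summed value of the members ranged from 3587333 to 14548357 between libraries. The sperm label was checked against miRNAs in the same libraries. miR-34b, miR-34c and miR-449a, miRNAs of late male germ cells, held 23.6% to 51.3% of the miRNA table. miR-200 family miRNAs of epithelium held 0.687% to 3.23%, leukocyte miRNAs 0.0253% to 0.123%, erythroid miRNAs 0.0107% to 0.206%, and miRNAs of muscle and stroma 1.54% to 11.3%. The muscle and stroma list was almost wholly miR-143-3p, with a median of 13568 over the libraries. In it miR-1-3p, miR-145-3p and miR-145-5p had medians of 17.4, 17.7 and 40.7, and miR-133 had no row.

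In the members 3 libraries stood apart, 2 of them by the share of the piRNA signal. At 0.4 ppm replicate 6 the members held 72.2% of the summed distinct rows, and at 0.8 ppm replicate 5 they held 66.9%, while in the other 21 libraries they held 82.1% to 88.7%. These 2 libraries had the highest shares of epithelial miR-200 family miRNAs of their groups, 3.23% and 2.95% of the miRNA table, against 0.687% to 2.46% in the other 21. Their shares of the other marker lists lay inside the ranges of the other 21, with germ cell miRNAs at 29.7% and 33.2%. The library 0.4 ppm replicate 5 had the highest summed member value of all, 14548357. It also had the lowest germ cell (23.6%), leukocyte (0.0253%) and erythroid (0.0107%) miRNA shares of all libraries. In its group it had the lowest epithelial share (1.06%) and the highest muscle and stroma share (4.17%). The part of these differences in the results below was not tested. Shares, links between members, the largest spreads and the ozone counts and medians are also given without these libraries.

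The 200 members carried most of the signal of the 15164 distinct rows. They held 84.1% ± 4.95 of the summed distinct rows (SD, n = 23). In order of dose the share was 85.2% ± 2.03 in air (SD, n = 7; lowest 82.1%, median 86.3%, highest 87.1%), 84.6% ± 5.16 at 0.4 ppm (SD, n = 8; 72.2%, 86.0% and 88.7%) and 82.7% ± 6.57 at 0.8 ppm (SD, n = 8; 66.9%, 84.9% and 87.1%). The groups overlapped, and the lowest library of each ozone group was the one named above. Without these 2 libraries the share was 85.2% ± 2.03 in air, 86.3% ± 1.44 at 0.4 ppm and 85.0% ± 1.72 at 0.8 ppm (SD, n = 7 each).

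Most of the signal sat in a few rows. The most abundant row alone held 5.64% ± 1.73 of the distinct signal, the first 10 held 33.1% ± 5.01, the first 50 held 65.2% ± 6.33 and the first 100 held 75.8% ± 6.15 (SD, n = 23 each). Without the 2 low-share libraries these shares were 5.91% ± 1.56, 34.5% ± 2.09, 66.9% ± 2.55 and 77.5% ± 2.36 (SD, n = 21 each). 16 members made up 50% of the members' mean signal. The mean level of the first member was 114 times that of the last, 15 members averaged at least 100000 and 108 at least 10000, while 50.3% of all distinct rows averaged under 10. At the limit of the list, piR-rno-889322 and piR-rno-2128255, the last 2 members, averaged 3811 and 3769, and piR-rno-2091704 and piR-rno-2134371 just outside it averaged 3662 and 3643.

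**Figure D1:**
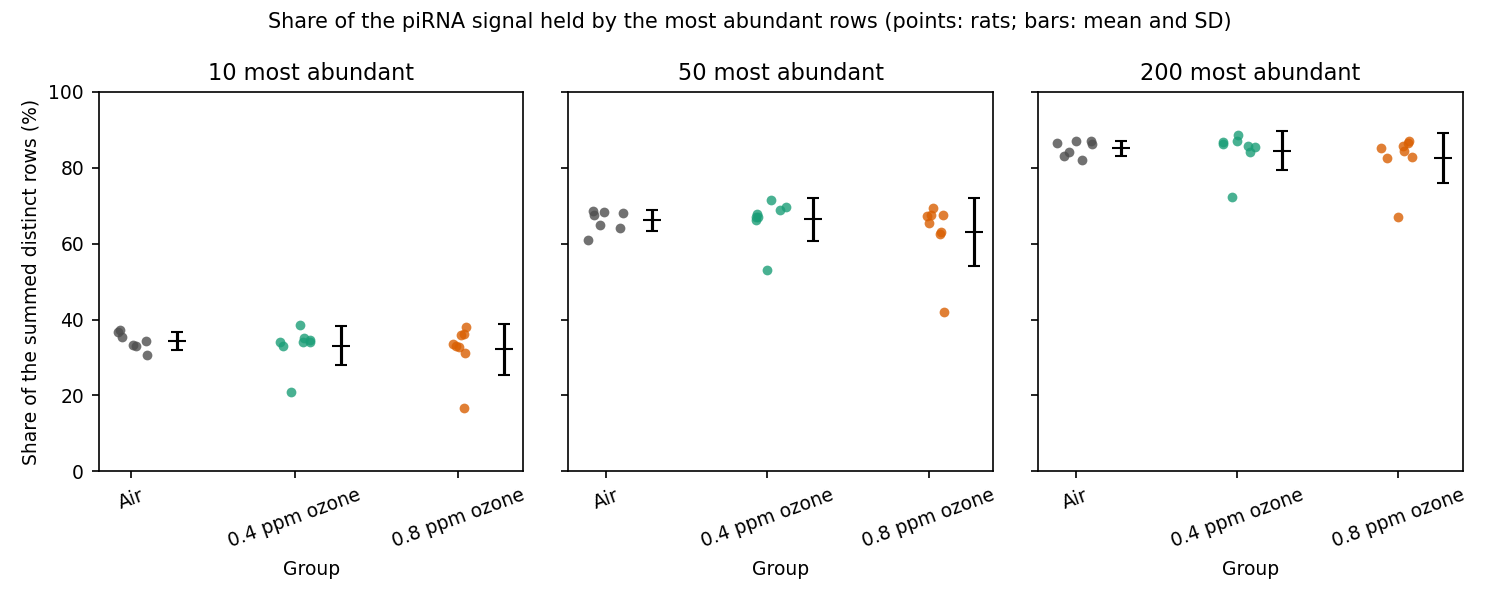
Share of the summed distinct piRNA rows (percent) held by the 10, 50 and 200 most abundant rows in each rat, by group, with group mean and SD. The 2 libraries far below the others, 72.2% at 0.4 ppm and 66.9% at 0.8 ppm for the 200 members, are low in all 3 panels.

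The order of abundance held in part from rat to rat. A library's own 200 most abundant rows included 134 to 191 of the members, and 166 to 191 in the 21 libraries other than the 2 low-share ones. 92 members were among the 200 most abundant rows of every library, and 142 were in at least 20 libraries. Ranking on the air libraries alone kept 192 of the 200 members, and ranking by the median kept 193.

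Many piRNA identifiers share their values. Among the members, 59 (29.5%) stood for a set of rows with the same values in every library, against 31.1% of the other distinct rows. With these copies the members covered 416 rows of the table. piR-rno-2126756 stood for 27 rows, piR-rno-2045780 for 11 and piR-rno-2128399 for 10. Counted once, the members held a mean of 47.4% of the whole table in air rats, 48.2% in 0.4 ppm rats and 47.3% in 0.8 ppm rats (SD 1.36, 2.95 and 2.86). With their copies they held 69.8% to 86.6% of it over the 23 libraries.

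Of the 10 most abundant rows, 9 fell in 3 groups of rows that moved together between rats, described further on. piR-rno-3104129, the first of all, had a lowest, median and highest value of 265268, 457823 and 556876 in air, 140438, 350501 and 1123100 at 0.4 ppm, and 182048, 351119 and 800540 at 0.8 ppm. Both ozone groups held values below and above the whole air range. The lowest 0.4 ppm and 0.8 ppm values were those of the 2 low-share libraries, and the highest 0.4 ppm value was that of replicate 5.

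piR-rno-856564 and piR-rno-856566, ranked 6 and 7, moved with piR-rno-3104129 almost without error. Their values were 0.497 to 0.504 and 0.497 to 0.503 of its value in all 23 libraries, with a coefficient of variation (CV, SD over mean) of the ratio of 0.331% and 0.296%. Whether the 3 rows are separate molecules was not tested, and the sources used here do not say how reads were divided among similar piRNAs.

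piR-rno-2129341, the second most abundant, had a lowest, median and highest value of 203760, 280424 and 393701 in air, 211362, 445348 and 671708 at 0.4 ppm, and 151363, 364559 and 509087 at 0.8 ppm. 4 of 8 libraries at 0.4 ppm lay above the highest air library and none lay below the lowest. piR-rno-2129443 and piR-rno-2141311, ranked 4 and 5, followed it at 0.733 to 0.830 and 0.541 to 0.655 of its value. piR-rno-2225649, the third, had a lowest, median and highest value of 139968, 253888 and 334943 in air, 106547, 340365 and 538212 at 0.4 ppm, and 131194, 277544 and 444669 at 0.8 ppm. Its ranges overlapped in all groups. piR-rno-2300456, ranked 10, followed it less tightly, at 0.415 to 0.612 of its value, and piR-rno-3436093, ranked 8, was at 0.299 to 0.462 of piR-rno-3104129. piR-rno-856561, ranked 9, was the one outside these groups, with a lowest, median and highest value of 104959, 199143 and 227400 in air, 50124, 151471 and 284293 at 0.4 ppm, and 65945, 167371 and 247186 at 0.8 ppm. The air range lay inside that of each ozone group.

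**Figure D2:**
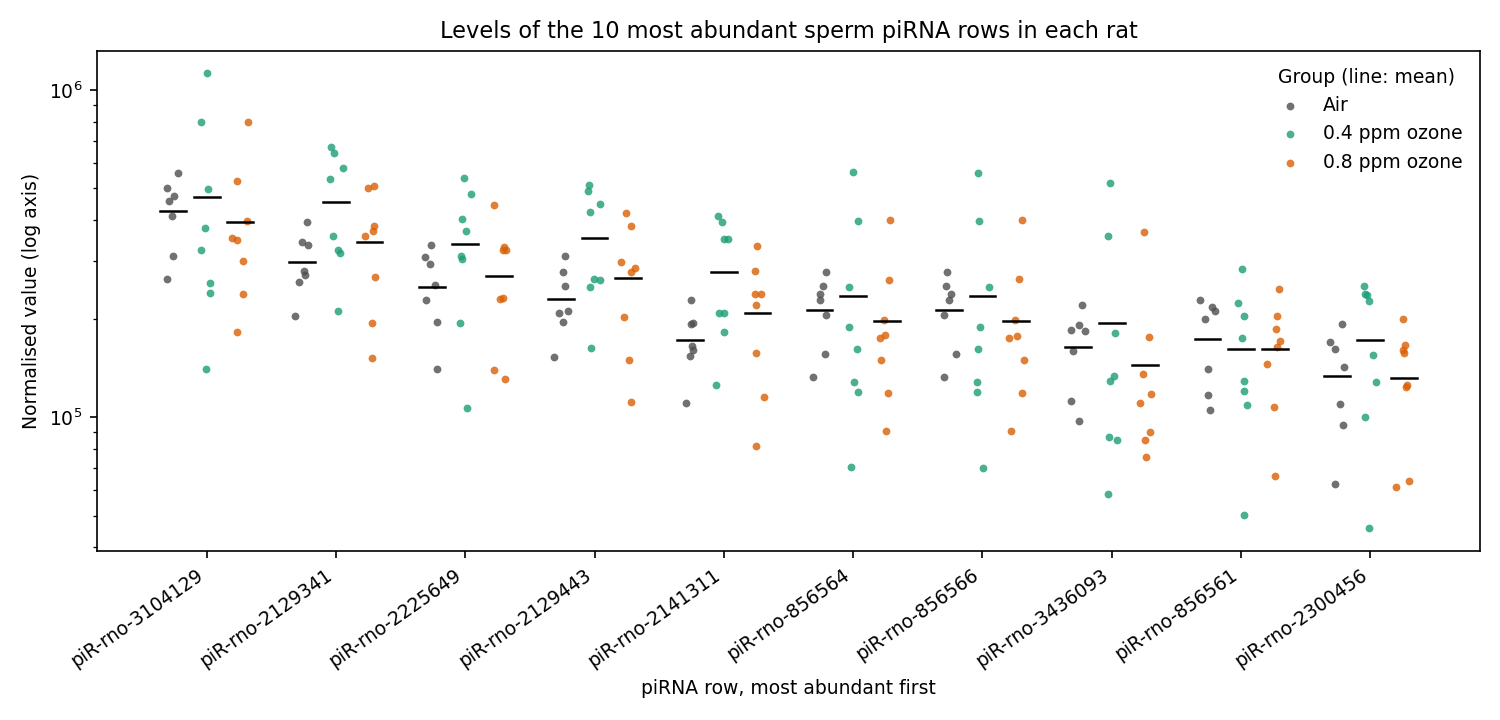
Normalised value (log axis) of the 10 most abundant distinct piRNA rows in each rat, by group, with the group mean as a line. The 3 groups overlap for every row, and piR-rno-3104129 at 0.4 ppm spans 140438 to 1123100.

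Beyond these, the members formed blocks of rows that rose and fell together between rats. Over the 19900 pairs of members, Pearson's r of the log2 values over the 23 libraries had a median of 0.37, 475 pairs had r of at least 0.95 and 20.3% of pairs had r below 0. Joining pairs at r of at least 0.95 placed 153 members in 30 groups of 2 or more and left 47 alone. Without the 2 low-share libraries 468 pairs were that close and 26 groups held 145 members, and without the high-signal library as well 448 pairs were and 27 groups held 143. These correlations are descriptive, since all points share library, depth and scaling.

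The largest groups held most of the members' signal. The first had 19 members led by piR-rno-889324 and held 14.2% of the distinct signal on average. The second had 16 members, led by piR-rno-653150, and held 2.75% on average but 11.2% in 0.8 ppm replicate 5, and 2.33% on average without the 2 low-share libraries. The third, 13 members led by piR-rno-2225649, held 9.21%. The 12 members led by piR-rno-2129341 held 16.9% ± 2.40 in air, 19.5% ± 4.55 at 0.4 ppm and 17.3% ± 3.75 at 0.8 ppm, and the 9 led by piR-rno-3104129 held 17.4% ± 2.89, 14.0% ± 6.22 and 14.7% ± 4.47 in the same order of dose (SD; 7 rats in air, 8 in each ozone group). For these 2 groups of rows, each ozone mean differed from the air mean by less than the SD of that ozone group. The fifth group, 10 members led by piR-rno-2128975, held 2.92% ± 0.52 in air, 2.18% ± 0.65 at 0.4 ppm and 2.13% ± 0.68 at 0.8 ppm (SD, n = 7, 8 and 8), so that both ozone means were below the air mean by more than the SD of either ozone group. Its ranges overlapped, with 2.17% to 3.69% in air, 1.33% to 3.47% at 0.4 ppm and 1.23% to 3.33% at 0.8 ppm, and without the 2 low-share libraries the ozone means were 2.24% and 2.05%. This share was singled out after its values were seen and was not tested. None of its 10 rows had an unadjusted p under 0.05 against air at either dose, by limma. The first 6 groups together had 79 members and 61.8% ± 5.15 of the distinct signal (SD, n = 23), and 46.9% in 0.8 ppm replicate 5. Without the 2 low-share libraries it was 62.9% ± 3.71 (SD, n = 21).

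Rows with near identifiers tended to be linked. Of the 74 pairs of members whose piRBase numbers were within 10 of each other, 37 had r of at least 0.95, and so did 2.21% of the other pairs. None of the 74 pairs had r below 0, against 20.4% of the other pairs. Whether such rows have overlapping sequences was not tested.

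**Figure D3:**
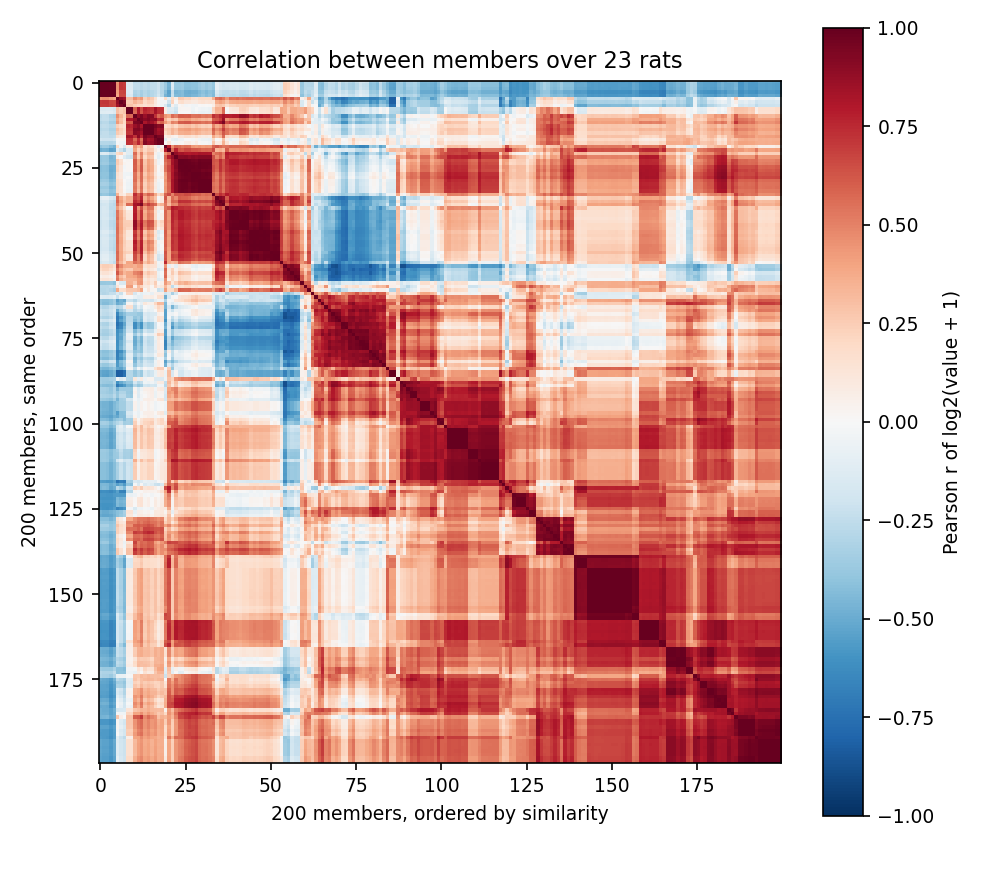
Pearson r between all pairs of the 200 members over 23 rats (log2 of value + 1), with members ordered by similarity. Dark red blocks on the diagonal are groups of linked members, and blue areas are pairs with r below 0, 20.3% of all pairs.

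The spread between animals was smaller for members than for the rest of the table in each group. The CV of a member across rats had a median of 33.2% in air, 52.1% at 0.4 ppm and 46.0% at 0.8 ppm. The other 14964 distinct rows had medians of 55.8%, 71.5% and 67.0% in the same order. The 200 rows ranked just below the members came closer to them, with medians of 37.5%, 55.5% and 51.9%. Without the 2 low-share libraries and the high-signal one, the member medians were 33.2% in air, 37.5% at 0.4 ppm and 40.5% at 0.8 ppm, with 7, 6 and 7 libraries left. The difference in CV between groups was not tested.

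With each library rescaled to the same summed table, the spread of the members was smaller, with medians of 24.9%, 39.9% and 38.2% in the same order of dose. The members with their copies make up most of that sum, so part of this fall follows from the rescaling itself. The other distinct rows went the other way, with rescaled medians of 62.2%, 80.0% and 72.3%. On the deposited scale, the members with the lowest CV, averaged over the 3 groups, were piR-rno-2128461, piR-rno-2126756, piR-rno-2128515, piR-rno-2119154 and piR-rno-2128076, at 29.5% to 31.6%. piR-rno-2126756 had a lowest, median and highest value of 2419, 4571 and 6378 in air, 2237, 4171 and 5142 at 0.4 ppm, and 2407, 3999 and 6654 at 0.8 ppm, ranges that overlapped throughout.

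A few members varied far more. The 5 highest mean CVs on the deposited scale were those of piR-rno-638688, piR-rno-88633, piR-rno-3436094, piR-rno-647110 and piR-rno-3430784, at 109% to 166%. piR-rno-638688 had a lowest, median and highest value of 268, 1033 and 3035 in air, 323, 907 and 17439 at 0.4 ppm, and 227, 1142 and 80992 at 0.8 ppm. Its median in each group was below 3769, the mean of the last member. Its place in the list, and with it its high CV, leaned on its 2 highest values, those of the low-share libraries. Without them its mean CV was 88.9% and not 166%, that of piR-rno-88633 was 81.8% and not 138%, and that of piR-rno-647110 was 56.9% and not 125%, while piR-rno-3436094 stayed at 136% and piR-rno-3430784 was at 110.1%. piR-rno-3436094 had a median of 33242 in air, 22243 at 0.4 ppm and 12000 at 0.8 ppm and its highest library was replicate 6 in air (100179), replicate 5 at 0.4 ppm (277082) and replicate 7 at 0.8 ppm (196426).

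**Figure D4:**
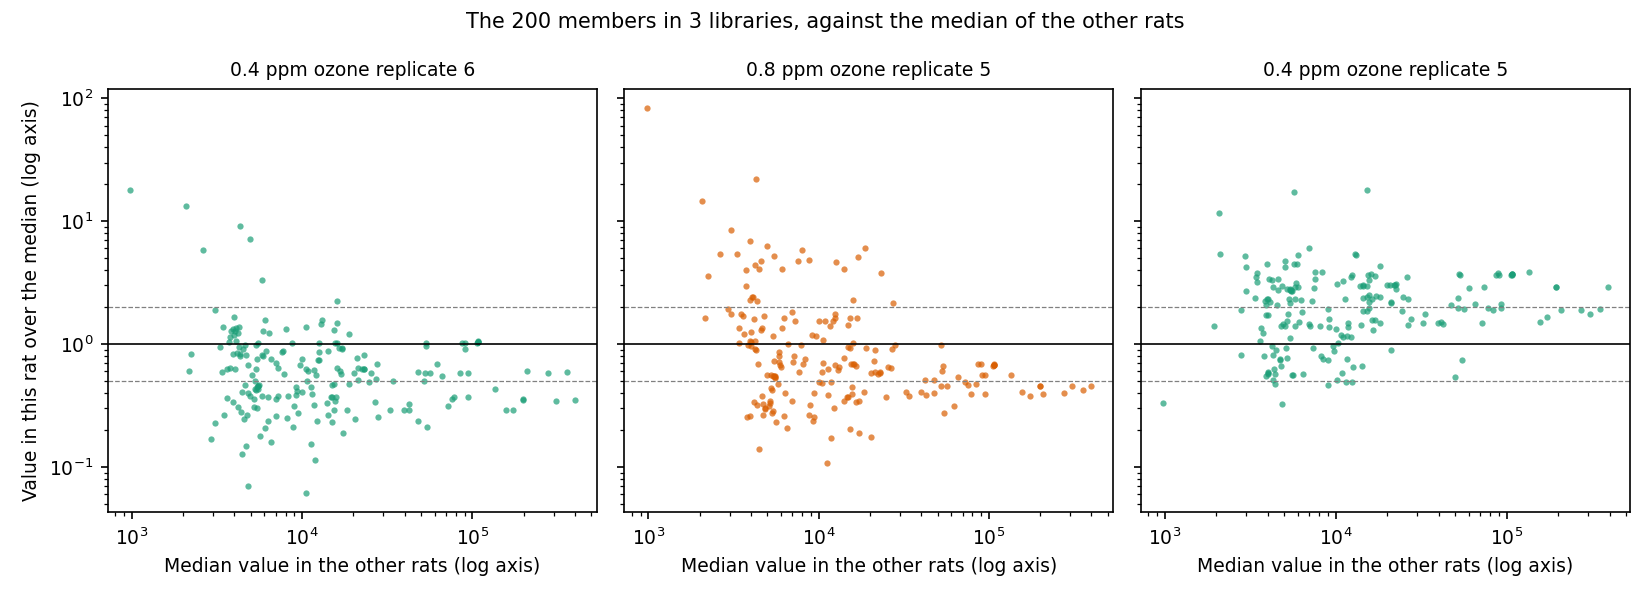
Value of each member in 3 libraries over its median in the other rats, against that median (log axes, dashed lines at 0.5 and 2). At 0.4 ppm replicate 6 and 0.8 ppm replicate 5 most members lie below 1 while a few lie far above it, and at 0.4 ppm replicate 5 most lie above 1.

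In the 2 low-share libraries the fall was not spread evenly over the members. At 0.4 ppm replicate 6, 87 members were below 0.5 of their median in 21 other rats and 7 were over 2 times it. At 0.8 ppm replicate 5, 70 were below and 30 above. The piR-rno-653150 group was among those raised in the 0.8 ppm library. The Ensembl row of Stat2, a factor of interferon signalling, held 20.7% and 37.8% of the Ensembl table there, against 3.36% to 25.9% in the other 21 libraries, so that only the 0.8 ppm value was outside their range. The Ensembl row AY172581.24 held 16.8% and 13.5% in these 2 libraries, below the 30.2% to 59.2% of the other 21. The part of these rows in the members' values was not tested. 13 members had the Stat2 row as their closest Ensembl row, at r from 0.92 to 0.95 over the 23 libraries. For 2 members it was AY172581.24, at r of 0.92 and 0.95.

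Rows of the other tables moved with members at times. The best match of a member to an Ensembl transcript row reached r of at least 0.9 for 48 members (24.0%), against 2.94% of the other distinct rows, and 23.0% of the 200 rows ranked just below the members. The closest was piR-rno-867648 with the row of Olr1568, an olfactory receptor gene, at r = 0.97. Only 1 member, piR-rno-3436094, followed a miRNA row (miR-151-3p) at r of at least 0.9, with r = 0.901, and none followed a tRNA row at that level. The next members by likeness to a miRNA were piR-rno-3864975 with miR-7a-5p at r = 0.898 and piR-rno-2114290 with miR-92b-3p at r = 0.890. The closest to tRNA rows were piR-rno-4602 with tRNA-Trp-CCA-4-1 at r = 0.899, piR-rno-3436094 with tRX-Ser-NNN-2-1 at r = 0.884 and piR-rno-281493 with tRNA-Tyr-GTA-2-2 at r = 0.881. After Olr1568, the closest to Ensembl rows were piR-rno-2041981 with AY172581.24 at r = 0.95 and piR-rno-643693 with Stat2 at r = 0.95. With every table rescaled to the same sum in each library, 37 members (18.5%) followed an Ensembl row at that level, against 22.5% of the 200 rows ranked just below and 3.46% of all other distinct rows. For miRNA rows it was 12 members (6.0%), against 8.0% and 1.10%, and for tRNA rows 53 members (26.5%), against 13.5% and 1.82%. Whether rows that move together share reads could not be checked. Of 28 genes that act in piRNA production or function, 2 had a row in the Ensembl table, which has only 617 rows. A gene without a row there is therefore not shown to be absent from sperm. The 2 were Tdrd1 and Tdrd12, whose proteins are Tudor-domain proteins of the germ line. Tdrd1 had a lowest, median and highest value of 85.4, 111 and 175 in air, 30.2, 94.5 and 227 at 0.4 ppm, and 52.2, 86.1 and 203 at 0.8 ppm.

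The comparison with air asks whether the ozone exposures moved these abundant piRNA rows. All 30676 rows were fitted with limma on log2(value + 1), and p-values were adjusted over all of them by Benjamini-Hochberg. None of the 200 members passed an adjusted p of 0.05 at 0.4 ppm against air, and neither did any of the 30676 rows (0.00%). At an unadjusted p under 0.05, 6 of the 200 members (3.0%) were past that limit, against 5.11% of the distinct rows. Of these 6, 1 was higher, against 1.67% of the distinct rows, and 5 were lower, against 3.44%. The smallest adjusted p among the members was 0.974 by limma. The exact Wilcoxon rank-sum test gave 10 members (5.0%) at an unadjusted p under 0.05, against 3.98% of the distinct rows, and none after adjustment. The 6 became 26 members (13.0%) without 0.4 ppm replicate 3, where 5.37% of the distinct rows were past that limit, and 18 (9.0%) without 0.4 ppm replicate 6, where 5.66% were. They became 15 (7.5%, against 6.79% of the distinct rows) without 0.4 ppm replicate 8, 10 (5.0%, against 5.66%) without 0.8 ppm replicate 5 and 3 (1.5%, against 4.35%) without Air replicate 1. Without the 2 low-share libraries there were 19 members (9.5%, against 6.14%), and without the high-signal library as well 13 (6.5%, against 5.22%). No member passed adjustment in any of these fits.

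At 0.8 ppm against air no member passed, and no member had an unadjusted p under 0.05, where 2.95% of the distinct rows did and 0.00% of all rows passed adjustment. The Wilcoxon test gave 1 member (0.5%) at an unadjusted p under 0.05, against 2.48% of the distinct rows, and none after adjustment. The limma count was 3 without 0.8 ppm replicate 5 and 1 without each of 0.8 ppm replicate 4, 0.8 ppm replicate 7 and Air replicate 6, where 2.53% to 4.44% of the distinct rows were past that limit. It was 4 without the 2 low-share libraries (2.0%, against 4.91%). The 2 comparisons share the air libraries. The median member was 0.28 higher on the log2 scale at 0.4 ppm than in air, with 131 of 200 fold changes above 0, and 0.01 higher at 0.8 ppm, with 103 of 200 above 0. The median at 0.8 ppm was between -0.10 and 0.14 when each rat was left out in turn. Over all distinct rows the medians were -0.05 and -0.02, with 46.2% and 48.1% of fold changes above 0. Over the 500 most abundant distinct rows, which include the members, the medians were 0.29 and 0.07, with 354 and 313 of 500 above 0. The 0.4 ppm median was thus not particular to the members.

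The 0.4 ppm median depended on the scaling. When each library was rescaled to the same summed table, the member median was -0.00 and 100 of 200 were above 0, and by quantile normalisation the median was 0.04 with 110 above 0. The members with their copies held 69.8% to 86.6% of that sum, so equal sums bring their median near 0 largely by construction. Quantile normalisation likewise gives the highest values of every library the same distribution. Neither value can therefore tell whether the members as a whole changed. On the deposited scale the median was 0.36 without the 2 low-share libraries, and without these and the high-signal library it was 0.18. It was 0.11 without Air replicate 1. The mean shares of marker miRNAs at 0.4 ppm and in air also differed, and these differences were not tested. The germ cell miRNAs held 35.6% ± 6.50 of the miRNA table at 0.4 ppm, against 42.6% ± 5.46 in air, those of muscle and stroma 2.85% ± 0.70 against 1.95% ± 0.52, and those of epithelium 1.78% ± 0.72 against 1.14% ± 0.33 (SD, n = 8 and 7). Leukocyte miRNAs held 0.0845% ± 0.0332 against 0.0704% ± 0.0128, and erythroid miRNAs 0.0844% ± 0.0690 against 0.0531% ± 0.0205. The ranges overlapped in all 5 lists, and their part in the result was not tested.

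Direct comparison of 0.8 ppm with 0.4 ppm gave no member past an adjusted p of 0.05 and none at an unadjusted p under 0.05, where 3.48% of the distinct rows were, by limma. The median fold change was -0.22, and 43 of 200 members were above 0. With equal table sums it was 0.02 with 110 of 200 above 0, and by quantile normalisation it was -0.05 with 86 above 0. Both values have the limit of rescaling given above. Without 0.4 ppm replicate 6, 11 members (5.5%) had an unadjusted p under 0.05, against 4.09% of the distinct rows. With any other rat left out 0 to 4 members did, against 2.82% to 5.69% of the distinct rows. The linear trend with ppm gave none past an adjusted p of 0.05 and none at an unadjusted p under 0.05, against 2.92% of the distinct rows, by limma. When each rat was left out it gave 0 to 3 members at that unadjusted limit, against 2.36% to 4.47% of the distinct rows.

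**Figure D5:**
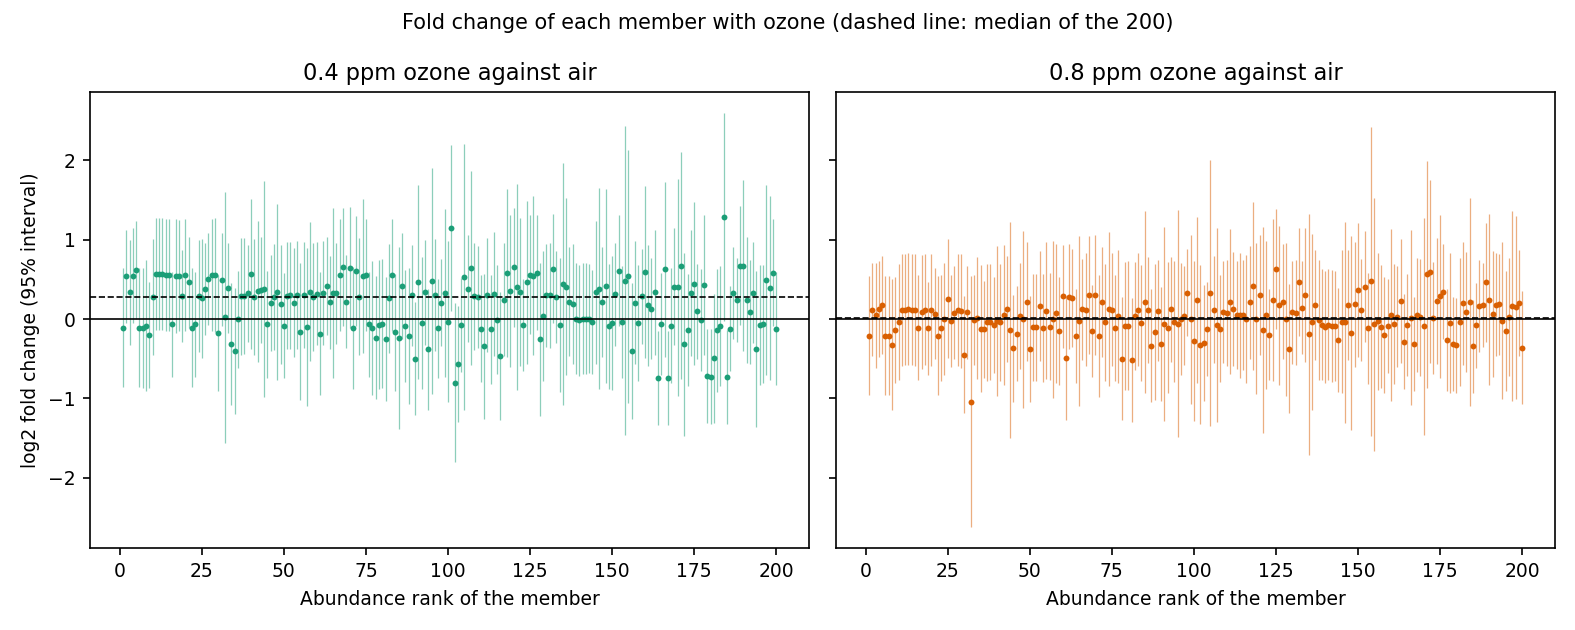
log2 fold change of each member with ozone, by abundance rank, with 95% intervals; the dashed line is the median of the 200. At 0.4 ppm against air the median is 0.28, and at 0.8 ppm against air 0.01.

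Among the 10 most abundant rows, the log2 fold change at 0.4 ppm against air ran from -0.21 for piR-rno-856561 to 0.62 for piR-rno-2141311, and at 0.8 ppm against air from -0.32 for piR-rno-3436093 to 0.18 for piR-rno-2141311. All 10 intervals included 0 in both comparisons. At 0.4 ppm the signs of piR-rno-3104129, piR-rno-856564, piR-rno-856566, piR-rno-3436093 and piR-rno-856561 turned from negative to positive without 0.4 ppm replicate 6, to values of 0.01 to 0.11.

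The 5 members with the smallest p at 0.4 ppm were 1 linked group. piR-rno-850468, piR-rno-807763, piR-rno-643952, piR-rno-643954 and piR-rno-643955 had correlations with each other of at least 0.989 over the 23 libraries. piR-rno-850468 had a lowest, median and highest value of 2072, 3455 and 5829 at 0.4 ppm, against 3142, 5089 and 10153 in air, a log2 fold change of -0.74 (SE 0.289, 95% interval -1.34 to -0.15, adjusted p = 0.974 by limma). The ranges overlapped, with all 8 libraries at 0.4 ppm under the air mean and 3 of them under the whole air range. The 5 had log2 fold changes of -0.72 to -0.74, and at 0.8 ppm against air of -0.29 to -0.34, and they follow 1 profile, so they are not 5 separate observations.

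piR-rno-2128725, singled out after its values were seen, was the only member of the 6 that was higher at 0.4 ppm. Its lowest, median and highest values were 3240, 6637 and 98163 at 0.4 ppm and 3377, 4777 and 5792 in air. The value of 98163 came from replicate 5, the library with the highest summed signal. Its log2 fold change was 1.14 with that library and 0.68 without it, where the unadjusted p was 0.0791 by limma.

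At 0.8 ppm the smallest unadjusted p was 0.0971, for piR-rno-625284. Its lowest, median and highest values were 4070, 8661 and 11072 at 0.8 ppm and 1893, 6161 and 10834 in air, so that the groups overlapped. The log2 fold change was 0.63 (95% interval -0.12 to 1.39, adjusted p = 0.9995 by limma). The next by p were piR-rno-803974 at 0.46, piR-rno-3436094, piR-rno-2129200 at -0.52 and piR-rno-2083775 at -0.50. Both piR-rno-2129200 and piR-rno-2083775 belong to the linked group led by piR-rno-2128975, so they are not separate observations. piR-rno-3436094 had the largest difference at 0.8 ppm, -1.04 (95% interval -2.62 to 0.54). 6 of the 8 rats at 0.8 ppm were under the whole air range, and replicate 7 was over it.

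The spread between rats limited the size of change that could be seen. The median half-width of a 95% interval was 0.72 on the log2 scale, and the interval lay within 1 log2 unit of 0 for 91 members at 0.4 ppm, 139 at 0.8 ppm and 103 between the ozone groups. For piR-rno-2129341 at 0.4 ppm against air the fold change was 0.54 (95% interval -0.05 to 1.12).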

How the data were processed

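Small RNA of 23 rats was deposited as 4 tables of normalised values. The miRNA, tRNA and Ensembl tables served for markers and for rows that move with members. The piRNA table, the main one here, holds a scaled read signal per piRBase row, which the authors deposited after processing that names Partek, Bowtie 1.0.0 and the build rn6 in the submitters' processing notes. Neither the assignment of reads to rows nor the depth is stated in the sources used here. Relative to the geometric mean over libraries, every library has the same median ratio, which is what median-ratio scaling within the table gives. Rows with identical values in all libraries were collapsed to the first, and 200 were kept by mean. Members and lists were chosen with earlier results of these data known.

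All 30676 rows and 3 groups entered 1 model of log2(value + 1) in limma 3.58.1 (R 4.3.3), using trend and robust options, adjusted by Benjamini-Hochberg over all rows. Members named: the 10 most abundant, 5 with the highest and 5 with the lowest CV, the 5 smallest p per comparison with air, ranks 199 to 202, leads of the 3 largest linked groups, the 3 with most copies, and the 3 best matches to each other table. piR-rno-2128725 was added outside this rule after its values were seen. On simulated data the fit was tested before use. The simulated rows were independent and their changes were larger than any seen in the members. That check therefore does not show how well smaller changes, or linked rows, are handled. Rats are separate animals. Alternatives were other pseudocounts, scalings (equal table sums, quantiles), filters, tests, member rules and libraries left out.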

Additional observations from a re-analysis of the deposited data

Results flagged for a closer look

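Values are listed here where the highest or lowest library of a group lay far from the nearest of the others. The rule was Dixon's gap ratio, the gap to the nearest value over the range of the group. In all, 75 groups of values were looked at and 14 were listed. Chance alone would list about 3.75 if the values were normal and independent. Many of the levels are linked and their distribution was not checked, so that number is only a rough guide. At 0.4 ppm replicate 6 the 10 most abundant rows held 20.9% of the distinct signal and the members 72.2%, and 141 members were among the library's own 200 most abundant rows. At 0.8 ppm replicate 5 these values were 16.5%, 66.9% and 134, and the summed value of the other distinct rows was 2105071. At 0.4 ppm replicate 5 the members summed to 14548357 and piR-rno-803974 was at 18349. At 0.8 ppm replicate 7, 4 members stood above the rest of their group: piR-rno-3436093 at 367497, piR-rno-3436094 at 196426, piR-rno-2129200 at 30731 and piR-rno-2083775 at 32891. In that library miRNAs of muscle and stroma held 11.3% of the miRNA table, against 1.54% to 4.17% in the other 22 libraries. In air, piR-rno-3436094 stood at 100179 in replicate 6. Values of 1 library are not independent of each other.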

How the results depend on the processing

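No member passed an adjusted p of 0.05 in any fit that was run. The linear trend had no Wilcoxon test and no fit of compared groups alone, and members summed with their identical rows had no fit of their own. Shares moved with the denominator and the length of the list. In order of dose the share was 77.0%, 76.7% and 73.9% for 100 members, 91.8%, 91.7% and 90.6% for 500 members, and 47.4%, 48.2% and 47.3% of the whole table. Near-zero fold changes of abundant members changed sign. Without both low-share libraries, an alternative chosen after seeing the data, the log2 fold change at 0.4 ppm against air was 0.10 for piR-rno-3104129 and piR-rno-856564, 0.097 for piR-rno-856566, 0.11 for piR-rno-3436093 and 0.013 for piR-rno-856561, and at 0.8 ppm against air 0.029 for piR-rno-856561 and 0.10 for piR-rno-2300456, the same without the high-signal library too for the 0.8 ppm values. By quantile normalisation it was -0.13 for piR-rno-2225649 and -0.012 for piR-rno-2300456 at 0.4 ppm, and -0.056 for piR-rno-2225649 at 0.8 ppm. Leaving out each rat in turn, the ranges at 0.4 ppm were -0.33 to 0.10 for piR-rno-3104129 and piR-rno-856564, -0.33 to 0.097 for piR-rno-856566, -0.34 to 0.11 for piR-rno-3436093 and -0.34 to 0.013 for piR-rno-856561, and at 0.8 ppm -0.086 to 0.18 for piR-rno-2225649, -0.25 to 0.029 for piR-rno-856561 and -0.20 to 0.11 for piR-rno-2300456. The cause was not tested. Members with an unadjusted p under 0.05 at 0.4 ppm against air numbered 6 (3.0%, against 5.11% of the distinct rows). They numbered 14 (7.0%) with equal table sums or with library weights, against 5.38% and 6.45% of the distinct rows, 13 (6.5%, against 5.33%) by quantile normalisation, 11 (5.5%, against 5.42%) in the compared groups alone and 10 (5.0%, against 3.98%) by Wilcoxon. Without both low-share libraries they numbered 19, and 13 without the high-signal library too. At 0.8 ppm they numbered 0 (against 2.95%), 7 (3.5%, against 2.66%) with equal table sums, and 6 (3.0%) by quantile normalisation or with library weights, against 3.42% and 7.70%. Pairs linked at r of at least 0.95 numbered 475, and 337 with equal table sums. Members summed with their identical rows shared 152 of the 200. No paired analysis was possible because the labels give each rat its own number. Library names end in numbers up to 12, of which 11 occur in 2 libraries each, and the labels name no run, so a run effect was not tested. The depth of the piRNA table is unknown.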
